A study of Mus musculus with 8 samples.

Results

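Genome-wide peaks of acetylated histone H3 (H3ac) were compared between day 4 and day 6 of mouse embryonic stem cell differentiation. Every deposited peak of both days entered the comparison, 12945 on day 4 and 5553 on day 6, so that 18498 of the 41152 peaks in the 4 deposited lists of the series were used. A region was called shared when a peak of each day overlapped by 1 bp or more, and day 4 only or day 6 only when a peak of one day met none of the other. The cells were embryonic stem cells of the 129/Ola strain, plated on gelatin and differentiated in N2B27, a serum-free medium in which stem cells commonly turn into neural precursors. Both days had the same strain, medium and commercial anti-H3ac antibody, no drug or mutation separated them, and each day had 1 ChIP library and 1 input library. The same study also profiled H3ac and the FLAG-tagged deacetylase HDAC1 on day 2, and those lists serve below only to show the earlier state of the same regions. With 1 library a day, differences between the days and differences between the libraries cannot be told apart, no test between days was made, and the 95% intervals given below reflect only how many peaks or genes were counted.

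Acetylation of the histone H3 tail is placed by acetyltransferases such as p300 and removed by histone deacetylases. It loosens the contact of the tail with DNA, offers a binding site for bromodomain proteins, and lies mainly on the nucleosomes that flank active promoters and enhancers, while the start site itself often lacks nucleosomes. In early neural differentiation, Sox, Zic, Pax and Meis transcription factors are switched on while the stem cell factors Pou5f1 and Nanog are switched off.

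The identity of the cells was checked on fixed markers, each counted as marked if its 5′ or 3′ end was at most 1 kb from a peak in RefSeq GRCm38.p6, the assembly of the files' build mm10. Of all protein-coding genes, 38.0% were marked on day 4 and 23.3% on day 6, and the marker counts below stand against these shares. On day 4, 7 of the 8 neural progenitor markers had a peak (Sox1, Nes, Zic1, Fabp7, Hes5, Zfp521 and Pou3f2), and on day 6, 3 of the 8 did (Zic1, Fabp7 and Zfp521). The stem cell markers Pou5f1, Nanog, Zfp42, Esrrb, Klf4, Tbx3, Dppa5a and Utf1 had none on either day, and the ninth, Tdgf1, had one on day 6. None of the mesendoderm, trophoblast, extraembryonic endoderm or germ line markers was marked on either day. Of the 6 neuron markers, 2 were marked on day 4 (Elavl4 and Stmn2) and 1 on day 6, and of the 4 neural crest markers only Pax3 was marked, on day 4. The eighth neural progenitor marker, Pax6, had no peak at its gene ends on either day and carried peaks inside the gene on both.

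Promoters that changed in different ways are shown first, as the 300 bases from 250 before to 50 after the start site, on the gene's strand, 5′ to 3′, from RefSeq GRCm38.p6. Capitals mark CG dinucleotides, the sites at which promoter DNA can be methylated. The first 3 are promoters over which peak cover grew: Sox2 (chr3:34649745-34650044, plus strand), where 15 of the 300 bases lay in a day 4 peak and all 300 in a day 6 peak; Zic1 (chr9:91365719-91366018, minus strand), with 0 and 161 bases; and Id2 (chr12:25096043-25096342, minus strand), with 102 and 300 bases.
Sox2: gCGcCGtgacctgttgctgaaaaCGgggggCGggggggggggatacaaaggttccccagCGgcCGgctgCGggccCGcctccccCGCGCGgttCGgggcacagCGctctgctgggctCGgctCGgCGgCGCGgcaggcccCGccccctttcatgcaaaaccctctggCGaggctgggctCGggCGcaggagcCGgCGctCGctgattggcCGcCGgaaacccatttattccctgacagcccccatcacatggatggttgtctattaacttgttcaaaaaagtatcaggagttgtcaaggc
Zic1: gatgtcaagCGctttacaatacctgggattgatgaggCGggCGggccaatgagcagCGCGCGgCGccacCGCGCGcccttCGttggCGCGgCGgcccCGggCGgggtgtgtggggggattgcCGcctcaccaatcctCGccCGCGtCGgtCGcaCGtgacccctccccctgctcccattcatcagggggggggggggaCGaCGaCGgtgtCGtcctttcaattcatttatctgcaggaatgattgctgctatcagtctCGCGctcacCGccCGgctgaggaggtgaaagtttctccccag
Id2: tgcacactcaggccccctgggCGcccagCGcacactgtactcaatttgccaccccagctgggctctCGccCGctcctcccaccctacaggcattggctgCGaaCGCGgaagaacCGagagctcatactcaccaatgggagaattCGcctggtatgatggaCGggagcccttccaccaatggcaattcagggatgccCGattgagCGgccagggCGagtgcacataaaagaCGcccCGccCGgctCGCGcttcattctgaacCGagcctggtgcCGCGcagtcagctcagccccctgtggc

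A pair of promoters had cover on day 4 and none on day 6. They were Naca (chr10:128035096-128035395, plus strand), with 300 bases covered on day 4, and Id3 (chr4:136143572-136143871, plus strand), with 109.
Naca: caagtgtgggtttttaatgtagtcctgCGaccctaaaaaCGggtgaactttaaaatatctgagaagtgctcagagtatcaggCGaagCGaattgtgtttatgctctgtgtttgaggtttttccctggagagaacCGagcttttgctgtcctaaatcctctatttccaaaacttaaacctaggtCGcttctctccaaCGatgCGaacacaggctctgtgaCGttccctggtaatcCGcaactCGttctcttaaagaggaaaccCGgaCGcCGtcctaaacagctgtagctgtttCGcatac
Id3: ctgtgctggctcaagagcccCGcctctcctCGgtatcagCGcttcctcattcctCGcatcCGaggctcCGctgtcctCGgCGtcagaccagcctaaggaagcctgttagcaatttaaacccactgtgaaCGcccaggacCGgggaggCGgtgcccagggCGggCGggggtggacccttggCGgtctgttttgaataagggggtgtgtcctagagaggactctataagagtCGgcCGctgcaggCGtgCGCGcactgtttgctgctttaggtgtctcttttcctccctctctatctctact

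A further pair had no cover on day 4 and all 300 bases covered on day 6, namely Dnaja2 (chr8:85555312-85555611, minus strand) and Wnt3a (chr11:59290702-59291001, minus strand).
Dnaja2: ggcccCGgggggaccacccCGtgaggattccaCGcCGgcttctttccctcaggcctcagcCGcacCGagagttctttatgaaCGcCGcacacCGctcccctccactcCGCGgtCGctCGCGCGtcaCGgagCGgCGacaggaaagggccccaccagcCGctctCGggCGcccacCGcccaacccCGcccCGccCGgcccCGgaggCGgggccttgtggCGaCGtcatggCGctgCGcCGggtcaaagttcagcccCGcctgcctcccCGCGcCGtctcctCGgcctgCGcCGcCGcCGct
Wnt3a: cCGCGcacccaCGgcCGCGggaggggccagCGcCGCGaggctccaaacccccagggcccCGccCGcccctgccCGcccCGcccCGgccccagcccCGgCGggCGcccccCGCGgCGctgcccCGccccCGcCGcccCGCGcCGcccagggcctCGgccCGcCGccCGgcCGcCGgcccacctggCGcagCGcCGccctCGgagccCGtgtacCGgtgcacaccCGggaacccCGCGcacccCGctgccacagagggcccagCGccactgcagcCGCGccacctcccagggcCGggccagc

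All 7 windows held CG dinucleotides, from 15 at Naca to 45 at Wnt3a, and the GC content was lowest at Naca and highest at Wnt3a (86.3%). The ratio of observed to expected CG was 0.82 at Sox2, 0.97 at Zic1, 0.71 at Id2, 0.95 at Naca, 0.70 at Id3, 1.01 at Dnaja2 and 0.86 at Wnt3a, so the ranges of the windows that gained cover and of those that lost it overlapped.

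The day 4 list was longer, and the day 6 peaks were wider. Peaks covered 11.9 Mb on day 4 and 11.6 Mb on day 6, although day 4 had the larger number of peaks, because the median peak was 792 bp wide on day 4 and 1898 bp on day 6. The 18498 peaks fell into 12723 regions, of which 4494 were shared, 7184 were day 4 only and 1045 were day 6 only. Of the day 4 peaks, 5761 (44.5%, 95% Wilson interval 43.7 to 45.4) overlapped a day 6 peak, and of the day 6 peaks, 4508 (81.2%, 80.1 to 82.2) overlapped a day 4 peak. When 5553 top-scoring peaks were taken from each list, 63.8% of day 4 peaks and 56.9% of day 6 peaks overlapped and the order of the shares was reversed. Number of reads and depth of the libraries are unknown, since the lists hold peaks only.

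By sequence, 6.08 Mb were covered on both days, 51.1% of the day 4 cover and 52.5% of the day 6 cover. A further 5.81 Mb were covered on day 4 only and 5.49 Mb on day 6 only. Of the day 6 only cover, 4.09 Mb lay inside day 6 peaks that overlapped a day 4 peak and 1.41 Mb in peaks that overlapped none, so most of the added sequence adjoined sequence already in a peak on day 4.

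**Figure D1:**
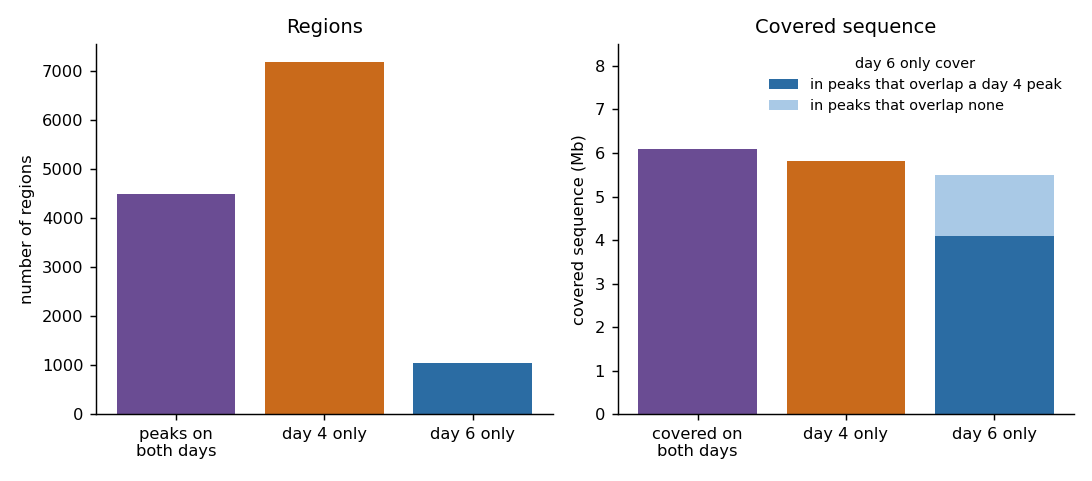
Left, number of regions by class; right, sequence covered by peaks (Mb) on both days or on 1 day, with the day 6 only cover split by whether its peak overlapped a day 4 peak. Day 4 only regions were the most numerous (7184), while the covered sequence was nearly equal in the 3 classes (6.08, 5.81 and 5.49 Mb).

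Peaks with high scores were shared more often. The deposited score ranks peaks within a list, and its values are not compared between lists. From the lowest to the highest decile of day 4 scores, the share that overlapped a day 6 peak rose from 14.3% (12.5 to 16.3) to 76.6% (74.2 to 78.8). For day 6 peaks it rose from 62.9% (58.8 to 66.8) to 96.6% (94.7 to 97.8). The shares also differed by location in both lists, and location was not separated from score or width. At the ends of protein-coding genes 50.7% of day 4 peaks overlapped a day 6 peak, inside genes 40.7% and outside genes 18.6% (16.6 to 20.8), and for day 6 peaks these shares were 84.5%, 78.8% and 54.2% (48.7 to 59.5).

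**Figure D2:**
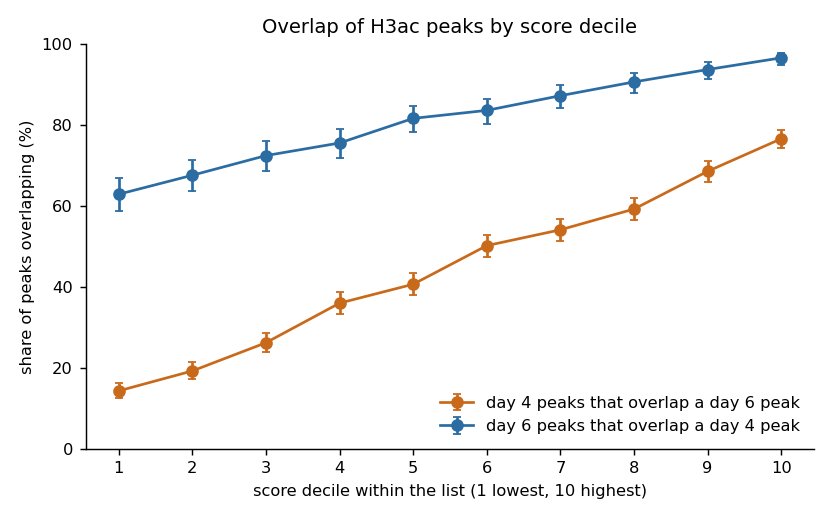
Share of H3ac peaks (%) that overlapped a peak of the other day, by decile of the score within each list; bars are 95% Wilson intervals. Both lines rise, from 14.3% to 76.6% for day 4 peaks and from 62.9% to 96.6% for day 6 peaks.

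Day 4 only peaks were narrower and weaker within their list than shared ones, with a median width of 680 bp against 947 bp and a median score of 75.2 against 146.7. Most lay far from any peak of the shorter day 6 list. The median distance to the nearest day 6 peak was 69320 bp, 5.21% lay within 1 kb of one and 40.05% lay more than 100 kb away. Even so, 303 of them came from the highest decile of day 4 scores, and of these 96.04% overlapped an H3ac peak on day 2. The threshold of 1 bp decided little. Of the 5775 overlapping pairs 13 shared 50 bp or fewer, and 21 day 4 only peaks lay within 50 bp of a day 6 peak.

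Of the day 6 only peaks, 22.3% (19.9 to 24.9) lay within 1 kb of a day 4 peak, and 19 came from the highest decile of day 6 scores. That share is not comparable with the 5.21% of day 4 only peaks, because the day 4 list is the longer (12945 against 5553 peaks). Distances at equal list lengths were not computed. Day 6 only peaks too were narrower than shared day 6 peaks, with a median of 1212 bp against 2078 bp, and both values exceeded those of day 4. The day 2 list overlapped 50.1% of day 4 only peaks, 81.1% of shared day 4 peaks, 47.5% of day 6 only peaks and 87.0% of shared day 6 peaks. HDAC1 peaks of day 2 overlapped 8.62%, 12.4%, 4.79% and 16.5% of the same classes. Over the whole lists, both day 2 lists thus met shared peaks more often than peaks of 1 day. In the highest decile of day 4 scores, the day 2 H3ac list overlapped 96.04% of day 4 only and 95.46% of shared peaks. In that of day 6 scores it overlapped 78.95% (56.67 to 91.49) of the 19 day 6 only peaks and 92.55% of shared peaks.

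Shared peaks widened almost without exception. Among the 3379 regions with exactly 1 peak on each day, the median width was 1000 bp on day 4 and 1845 bp on day 6. The median ratio of day 6 to day 4 width was 1.72 (1.69 to 1.74), and the middle 50% of regions had ratios from 1.37 to 2.26. The day 6 peak was wider in 3312 regions (98.0%) and narrower in 67, and the day 4 peak lay wholly inside the day 6 peak in 88.7%. Both sides grew, with a median of 305 bp on the left and 323 bp on the right.

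The added width was similar over a wide span of starting widths. Its median was 832 bp for the narrowest quartile of day 4 peaks, then 789, 687 and 642 bp, while the median ratio fell from 2.38 to 1.35. From the lowest to the highest decile of day 4 scores the median gain was 906.5 and 692 bp, respectively. Since day 6 only peaks were also wide, greater width was a feature of the whole day 6 list. What in the chromatin, the library or the peak calling it moved with was not tested. Joining peaks of 1 list less than 1 kb apart before the comparison gave a ratio of 1.53, and the day 6 peaks were still the wider.

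**Figure D3:**
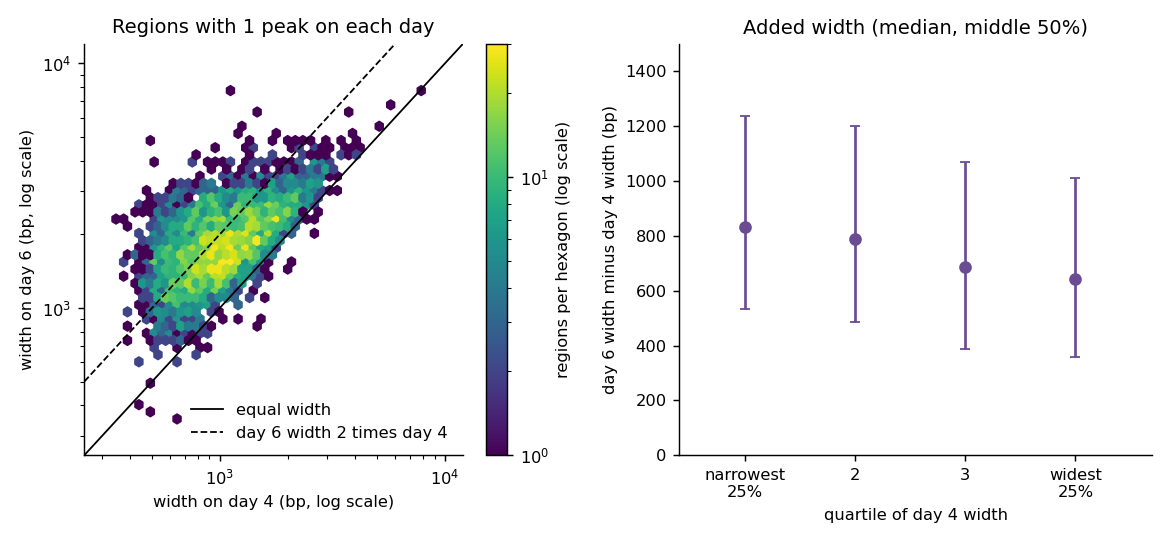
Left, day 6 against day 4 width (bp, log scales) of the 3379 regions with 1 peak on each day, coloured by the number of regions, with lines for equal width and for 2 times the width. Right, added width (bp) by quartile of day 4 width, points at the median and bars over the middle 50% of regions; the medians fell from 832 to 642 bp.

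Where the day 4 peak already held the start site, the larger gain was more often on the side inside the gene. In 998 of the 3379 regions with 1 peak on each day, the day 4 peak held start sites on 1 strand only. There the peak reached a median of 189 bp upstream and 951.5 bp downstream of the start site on day 4, and 610.5 bp upstream and 1334 bp downstream on day 6. The gain had a median of 232 bp upstream and 339 bp downstream, and it was larger downstream in 595 regions (59.6%, 56.5 to 62.6). In 2508 regions a start site lay in the day 4 peak or within 1 kb of it. The start site was inside the day 4 peak in 44.7% of them and inside the day 6 peak in 81.4%, it came into the peak in 921 and left it in 2. Start sites that lay beside a peak on day 4 were thus often under one on day 6, as at Sox2 above.

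Neighbouring day 4 peaks were often under a single day 6 peak. Of the 5553 day 6 peaks 1110 (19.99%) covered 2 or more day 4 peaks and 135 covered 3 or more, whereas 14 day 4 peaks touched 2 day 6 peaks. With equal numbers of peaks, which leaves out the weaker day 4 peaks, the share covering 2 or more was 6.72%. Among 2366 pairs of adjacent day 4 peaks with at most 1 kb between them, 1239 (52.4%) were joined by 1 day 6 peak, 694 had no day 6 peak at either, and the other 433 were met in other ways. The gap held a start site in 29.1% (26.7 to 31.7) of the joined pairs, in 31.0% (27.7 to 34.5) of pairs without a day 6 peak and in 54.3% (49.6 to 58.9) of the rest, whose gaps were also longer (median 486 bp against 170 bp in joined pairs).

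The day 6 peak that covered the most day 4 peaks lay inside Hoxa3, a homeobox gene of the hindbrain and neck. It was 6360 bp wide and covered 5 day 4 peaks that together spanned 5267 bp. Of the 20 that covered 4, high-scoring ones included those at the following genes: Smad7, an inhibitor of TGF-beta and BMP signals (6407 bp); Igf2bp1, an mRNA-binding protein of the embryo (7421 bp); Hmga1, an architectural chromatin protein (5235 bp); Mcl1, a survival factor (3614 bp); Sall1, a zinc-finger repressor (7357 bp); and Amotl2, a junction protein (5377 bp). In the reverse direction, a day 4 peak of 6549 bp over Hoxa2 and Hoxa3 touched 2 day 6 peaks, and Serbp1, Prss12, Snd1 and Smchd1 each had a day 4 peak touching 2.

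Widening was ranked over the regions at a gene end with 1 peak on each day, and those that gained most are described here. Elovl6, a fatty acid elongase, had a day 4 peak of 1270 bp and a day 6 peak of 5623 bp. Cdon, a cell surface co-receptor for hedgehog, went from 1186 to 5321 bp, and the day 6 peak ranked 6 in its list while the day 4 peak ranked 2920. Efnb1, an ephrin ligand, went from 1802 to 5281 bp. Id2, an inhibitor of basic helix-loop-helix factors, went from 1375 to 4706 bp, with cover of the promoter printed above growing from 102 to 300 bases.

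The others among the 8 that gained most were Nr2f2, an orphan nuclear receptor whose region lies at the 3′ end of the gene (934 to 4434 bp), Pax7, a paired-box factor of the dorsal neural tube (513 to 3942 bp), Glra1, a glycine receptor subunit (803 to 4158 bp), and Irx1, an Iroquois homeobox factor (1273 to 4603 bp). Of these 8 regions, the gains ran from 3330 bp at Irx1 to 4353 bp at Elovl6.

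Regions at gene ends that narrowed most changed far less. The largest loss was 610 bp, at the shared promoter of Glmn and Rpap2 (1522 to 912 bp), followed by Tnfrsf21, a death receptor (2081 to 1562 bp), and Arf4, a small GTPase of vesicle traffic (2569 to 2061 bp). Rap1a went from 1601 to 1107 bp, Ppp4r3b from 2682 to 2298 bp, Vps13c from 1225 to 917 bp and the ribosomal gene Rps10 from 3272 to 2969 bp. The eighth, between Mtx1 and Thbs3, went from 2799 to 2514 bp.

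Very broad peaks were almost confined to the day 6 list, where 92 peaks (1.66%, 1.35 to 2.03) were 5 kb or wider, against 5 on day 4. Of the 92, 90 overlapped a day 4 peak and 80 overlapped 2 or more. The genes in this paragraph were chosen after their values were seen. The widest, of 13613 bp, lay at Skida1 over 4 day 4 peaks, and one of 8616 bp lay over the long non-coding RNA gene Malat1. Zic genes, zinc-finger factors of early neural tissue, were at such peaks: Zic1 at 6848 bp, Zic2 at 8225 bp and Zic5 at 7644 bp, with a peak of 7739 bp inside Zic4. The frizzled receptors Fzd2, Fzd7 and Fzd10 had peaks of 5287, 6175 and 7359 bp, and the ephrin receptors Epha4 and Epha7 of 5943 and 6192 bp. Sox4 and Sox11 had peaks of 5279 and 5318 bp. The remaining broad peaks also included general genes such as Slc3a2, Hnrnpu and Etf1.

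Most protein-coding genes marked on day 6 were also marked on day 4. A peak at most 1 kb from the 5′ or 3′ end marked 8313 of 21887 genes on day 4 (38.0%) and 5096 on day 6 (23.3%). Both days marked 4453 genes (20.3%), day 4 only 3860 (17.6%) and day 6 only 643 (2.94%). Of the day 4 genes 53.6% were also marked on day 6, and of the day 6 genes 87.4% were also marked on day 4. With 5553 top-scoring peaks from each list the counts were 3297 on both days, 1877 on day 4 only and 1799 on day 6 only. At equal list lengths the totals of marked genes were near each other, 5174 and 5096. The 2 counts of genes marked on 1 day must then also be close, so their closeness is no separate result.

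Many day 6 only genes had a day 4 peak close by. For 120 of the 643 (18.7%, 15.8 to 21.9) the day 6 peak at the gene end overlapped a day 4 peak that stopped short of the 1 kb window, and 154 (23.95%) had a day 4 peak between 1 and 2.5 kb from a gene end. Among the 3860 day 4 only genes, 113 (2.93%) had a day 6 peak at that distance, counted against the shorter day 6 list. On day 2, 91.1% of the genes marked on both days had an H3ac peak at a gene end, against 76.6% of day 4 only, 58.2% of day 6 only and 11.5% of other genes.

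By summed rank, the strongest genes on both days were Kdm2b, a histone demethylase that recruits Polycomb to CpG islands (rank 4 on both days), Slc3a2, the heavy chain of an amino acid transporter (ranks 12 and 1), Rpl13a, a ribosomal protein (9 and 14), and Meis1, a homeobox partner of Hox proteins (2 and 24). Next came Arrdc3, an arrestin-like adaptor (29 and 2), Rabggtb, a subunit of Rab prenyltransferase (24 and 9), Srsf3, a splicing factor (26 and 15), and Sox2 (21 and 25). Meis1 stood out in width: its peak measured 7843 bp on day 4, the widest of that list, and 7682 bp on day 6.

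Among the strongest day 4 only genes, the top peak ranked 20 on day 4 and lay over the shared promoter of Ccdc77 and Kdm5a, a histone H3 lysine demethylase, and the nearest day 6 peak was 5119 bp away from it. Naca, a chaperone of nascent chains, ranked 66, Ppp1r15b, a regulator of the translation factor eIF2, ranked 87, and Rpl8, a ribosomal protein, ranked 93. Mycl, a Myc family factor, ranked 100, Nuak1, a kinase, ranked 118, and Phf12, a subunit of a Sin3 complex, ranked 126. All of these 8 genes also had a day 2 peak, and no day 6 peak within 1 kb, although at Phf12 one lay 1061 bp from a gene end.

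At 7 of the 8 strongest day 6 only genes the day 6 peak overlapped a day 4 peak that lay over 1 kb from both gene ends. Lbhd1 ranked 43 on day 6 and had a day 4 peak 1009 bp from a gene end. Tle4, a Groucho corepressor, ranked 95 with one at 1314 bp, and Slc25a38, a mitochondrial carrier, ranked 108 with one at 1837 bp. At Lbhd1 and Slc25a38 the call came from the 3′ end, which lay 717 and 815 bp from the day 6 peak. The promoter windows of both, taken as above, had 0 bases covered on either day. Ankrd17 ranked 211 with a day 4 peak at 1165 bp, and Tbl1xr1, a subunit of nuclear corepressor complexes, ranked 263 with one at 1019 bp. Irx2, an Iroquois homeobox factor, ranked 229 and Zfp423, a zinc-finger factor of neural precursors, ranked 231. Their day 6 peaks of 4905 and 4494 bp lay over day 4 peaks of 1718 and 1367 bp. The day 4 peak nearest to a gene end was 2992 bp from it at Irx2 and 3274 bp at Zfp423. At Irx2 that nearest peak was a different one, of 1210 bp, which the day 6 peak did not overlap. The Irx2 promoter window had 62 bases covered on day 4 and 0 on day 6, the opposite of its class. In the same window, Tle4, Ankrd17 and Tbl1xr1 went from 0 covered bases on day 4 to 21, 207 and 98 on day 6. At Zfp423 and Dnaja2 cover went from 0 bases to the whole window. The exception was Dnaja2, a heat shock co-chaperone (rank 135), whose day 6 peak of 2724 bp overlapped no day 4 peak, the nearest lying 8162 bp from a gene end.

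The neural candidates fell into different classes. Sox2, a factor of stem and neural progenitor cells, had 3 peaks within 10 kb on day 4, of 1515, 3740 and 832 bp, and on day 6 a single peak of 10001 bp covered all 3. A second day 6 peak of 6188 bp began within 10 kb downstream, in the gene of the overlapping transcript Sox2ot. It overlapped 1 day 4 peak of 1434 bp, which lay beyond 10 kb, so this region was also marked on day 4. Sox1, a related factor that marks neural commitment, had 5 peaks on day 4 (585 to 1096 bp, the best at rank 3227) and no day 6 peak within 271200 bp. Sox3, the third of this subfamily, had no peak on either day. The 3 Sox genes of this subfamily were therefore covered more widely, no longer covered, and never covered.

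Pax6, a master factor of eye and forebrain, had 3 day 4 peaks inside the gene, of which the widest was 2615 bp, and on day 6 a single peak there of 4927 bp. Zic1 had 2 peaks on day 4 (1076 and 1369 bp) and a peak of 6848 bp on day 6 over both, plus another of 2212 bp upstream. Zic2 went from 3550 to 8225 bp, while its rank was 3 on day 4 and 482 on day 6. Meis2, a relative of Meis1, had 8 day 4 peaks within 10 kb of the gene, covering 10693 bp, and 3 day 6 peaks, covering 15162 bp. Fewer and wider peaks were thus seen at Pax6 and Meis2 as at Sox2.

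The Hox candidates belong to the anterior ends of the HoxA and HoxB clusters, expressed in the hindbrain. Peaks that reached within 10 kb of a gene were counted at their full width. At Hoxa2, 7 such day 4 peaks spanned 13169 bp and 3 such day 6 peaks 20657 bp. The day 6 total includes the peak of 6360 bp inside Hoxa3, most of which lay beyond 10 kb. Only some of the 5 day 4 peaks under that peak were counted, so the 2 totals do not compare like stretches. At Hoxb2, counted in the same way, 6 day 4 peaks spanned 7713 bp and 2 day 6 peaks 12362 bp, and the best peak ranked 31 on day 4 and 26 on day 6. Hoxa3 shared its best peak with Hoxa2 on both days. Hoxb3 had a day 4 peak of its own (1216 bp, rank 1263) and on day 6 shared the peak of 7413 bp with Hoxb2. Of the 39 Hox genes 14 were marked on day 4 and 5 on day 6, against 38.0% and 23.3% of all genes, and the 9 lost from the call (Hoxa4, Hoxa5, Hoxa6 and Hoxa9 the strongest) had day 4 peaks that ranked 4707 at best. With equal list lengths 2 of the 39 were day 4 only.

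Intermediate filament and adhesion genes of neural progenitors split in the same way. Nes, which encodes the filament nestin, had 4 day 4 peaks within 10 kb and no day 6 peak within 19087 bp, and Prom1, a membrane glycoprotein of progenitors (rank 163 on day 4), Vim (rank 2280) and Pou3f2 (rank 2536) were also day 4 only. Cdh2, the gene of N-cadherin, was marked on both days by peaks of 2075 and 4955 bp. Fabp7, a lipid carrier of radial glia, had a day 4 peak of 797 bp (rank 11794) and a day 6 peak of 2120 bp (rank 1964). Zfp521, a zinc-finger factor that drives neural conversion, went from 809 to 3462 bp, and Fzd3, a frizzled receptor, from 977 to 2583 bp, with rank 3166 on day 4 and rank 46 on day 6.

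Among BMP targets, which oppose neural fate, Id1 went from 3 peaks covering 2486 bp within 10 kb to 1 peak of 5574 bp, and Id2 widened as given above. Id3 (rank 704 on day 4, 2249 bp) and Msx1 (rank 5332, 663 bp) were day 4 only, with the nearest day 6 peak 90272 and 394784 bp away. Members of the Id family were therefore in different classes. Wnt3a, a Wnt ligand of the dorsal midline, was day 6 only (rank 3474, 2763 bp), and its nearest day 4 peak was 19885 bp from a gene end. Tdgf1, a Nodal co-receptor of stem cells, was day 6 only (rank 4240, 1526 bp) and had a day 2 peak of rank 2043. Hhex, an endoderm and blood factor, had a weak day 4 peak (rank 9287) and none on day 6.

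The gene lists were chosen with earlier results of these data known, so their values are description only. They are given by their counts beside those over all genes, in the order both days, day 4 only and day 6 only. Neural progenitor genes were kept about as often as all genes and had wider day 6 peaks. Of 45 genes, 16 were marked on both days, 11 on day 4 only and 1 on day 6 only. Of the 27 marked on day 4, 59.3% (40.7 to 75.5) were marked on day 6, close to the 53.6% of all genes. For the 16 marked on both days, the best peak at a gene end had a median width of 1288 bp on day 4 and 5180 bp on day 6. The median ratio was 3.67 (2.39 to 4.75) against 1.94 (1.90 to 1.97) over all 4453 genes marked on both days, and the width at least doubled at 15 of the 16 against 47.2% of all. These ratios take the best peak of each day, so a day 6 peak that covers several day 4 peaks is set against 1 of them.

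For the BMP, hedgehog, Notch, Wnt and FGF lists the interval of the median width ratio held the value over all genes. BMP signalling had 11 genes on both days, 4 on day 4 only and none on day 6 only of 24, with a median ratio of 3.42 (1.37 to 5.37). Its members included the receptors Bmpr1a (795 to 1281 bp) and Bmpr2 (1278 to 4953 bp), the transducer Smad4 (1688 and 1676 bp) and the inhibitor Smad7 (1193 to 6407 bp). Hedgehog signalling had 8, 2 and 0 of 18, with a ratio of 2.60 (1.33 to 4.49). There the receptor Smo (1764 to 2343 bp) and the transcription factors Gli2 (1893 to 3706 bp) and Gli3 (1586 to 5405 bp) were on both days, and Kif7 and the ligand Dhh on day 4 only.

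Of all genes 20.3% were on both days, 17.6% on day 4 only and 2.94% on day 6 only. Notch signalling had 12, 7 and 2 of 30. The receptor Notch2 was on both days (1367 to 2235 bp), the receptor Notch1, the ligand Jag1 and the protease Adam17 were on day 4 only, and the DNA-binding factor Rbpj was on day 6 only. Wnt signalling had 13, 15 and 2 of 46: Ctnnb1, which encodes beta-catenin, was on both days (2305 to 2977 bp), and Myc, Tcf7l1, Dvl3 and Fzd8 were on day 4 only. With equal list lengths the day 4 only count of Wnt genes was 6. FGF and ERK signalling had 16, 8 and 1 of 35, with the feedback inhibitors Spry2 (4226 to 4349 bp) and Dusp6 (2505 to 5028 bp) on both days. Retinoic acid signalling had 2, 5 and 0 of 20. Rdh10, an enzyme of retinoic acid synthesis, went from 718 to 4014 bp and the carrier Crabp2 from 1204 to 4018 bp, while the carrier Crabp1, the receptors Rara and Rxrb and the degrading enzyme Cyp26a1 were on day 4 only. None of the 11 neural crest genes was on both days, and 4 (Pax3, Msx1, Tfap2b and Sox9) were on day 4 only.

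The lists of general cell functions differed in the share of genes marked on both days. Cytosolic ribosomal proteins had 73 of 86 genes on both days, aminoacyl-tRNA synthetases 16 of 19, splicing factors and hnRNP proteins 30 of 36, and proteasome subunits 22 of 31, against 20.3% of all genes. The median width ratio was 1.91 (1.63 to 2.22) for cytosolic ribosomal proteins, 1.504 (1.22 to 1.85) for the proteasome, 1.65 (1.46 to 1.84) for mitochondrial ribosomal proteins and 1.52 (1.44 to 1.71) for nuclear genes of oxidative phosphorylation. The last list had 38 genes on both days, 30 on day 4 only and none on day 6 only of 87, and glycolysis had 8, 9 and 1 of 22, against 20.3%, 17.6% and 2.94% of all genes. Among glycolytic genes Pkm, Eno1, Gapdh and Pfkm were on both days, Hk2, Aldoa, Pfkl and Tpi1 on day 4 only, and the X-linked Pgk1 on day 6 only.

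Replication-dependent histone genes had a different balance. Of 64 genes 44 were marked on both days, 1 (H1f3) on day 4 only and 11 on day 6 only, where 2.94% of all genes are day 6 only. With equal list lengths the counts were 22, 1 and 33. The 4 strongest, H2ac8, H2bc8, H2bc7 and H2ac7, shared 1 day 6 peak of 2331 bp, so the genes are not separate observations. Reads of these near-identical genes may have been placed on any copy.

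Of the 33 genes of class I HDAC complexes, which remove the mark, 19 were on both days, 8 on day 4 only and 4 on day 6 only. The counts in this and the following lists stand against 20.3%, 17.6% and 2.94% of all genes in the same order. Ncor1, a corepressor, went from 1981 to 4126 bp and Chd4, a remodeller of the NuRD complex, from 2119 to 3356 bp, and Hdac3 and Mta1 were on day 4 only. Rest, the repressor of neuronal genes, its partner Rcor2, Tbl1xr1 and Tbl1x were on day 6 only, although Tbl1xr1 had a day 4 peak 1019 bp from a gene end. Among 18 acetyltransferases and readers, which place or bind the mark, 10 were on both days, including Ep300 (1927 to 3193 bp) and Brd2 (3153 to 4556 bp), and 5 were on day 4 only, including Brpf1 (2520 bp) and Kat7 (1625 bp). Of 27 Polycomb genes 14 were on both days, 5 on day 4 only and 2 (Bmi1 and Ezh1) on day 6 only. Pluripotency genes had 7, 1 and 3 of 30. Sox2, Mycn (3801 to 6195 bp), Sall4 (1814 to 6767 bp) and the RNA-binding Lin28a (2113 to 4482 bp) were on both days, and Lin28b, Tdgf1 and Klf5 on day 6 only. Primed epiblast genes had 5, 3 and 1 of 15, with Sox4 (3843 to 5279 bp) and Sox11 (3762 to 5318 bp) on both days and Dnmt3b, Pou3f1 and Lef1 on day 4 only.

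Among the remaining lists, Nodal and TGF-beta signalling had 10, 4 and 2 of 28, with the repressor Tgif1 (2511 to 7406 bp) on both days, the transducer Smad3 on day 4 only and Smad2 on day 6 only. Cell cycle genes had 21, 9 and 2 of 37, with the mitotic kinase Plk1 on day 4 only and the cyclins Ccna2 and Ccne2 on day 6 only. DNA methylation genes had 5, 3 and 1 of 15, with the oxidases Tet1 and Tet2 on both days and Uhrf1 on day 4 only. Genes of ATF4 and amino acid stress had 11, 5 and 2 of 24, led by Slc3a2, and mitochondrial ribosomal proteins had 41, 26 and 4 of 78.

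Lists of other cell types and of genes that progenitors rarely use had few marked members. Neuron genes had 1, 3 and 0 of 26, with Elavl4 on both days and Stmn2 and Ina on day 4 only. Neurotransmitter receptors had 2, 5 and 2 of 29, ion channels 1, 0 and 0 of 22 and adult tissue controls 2, 1 and 1 of 18. Mesendoderm genes had 1 (Cxcr4), 2 (Hhex and Wnt3) and 0 of 27, extraembryonic endoderm genes 1 (Sparc), 1 (Lama1) and 0 of 18, and germ line genes 0, 1 (Kit) and 0 of 12. Trophoblast genes and the 1110 olfactory receptor genes had no marked member on either day.

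**Figure D4:**
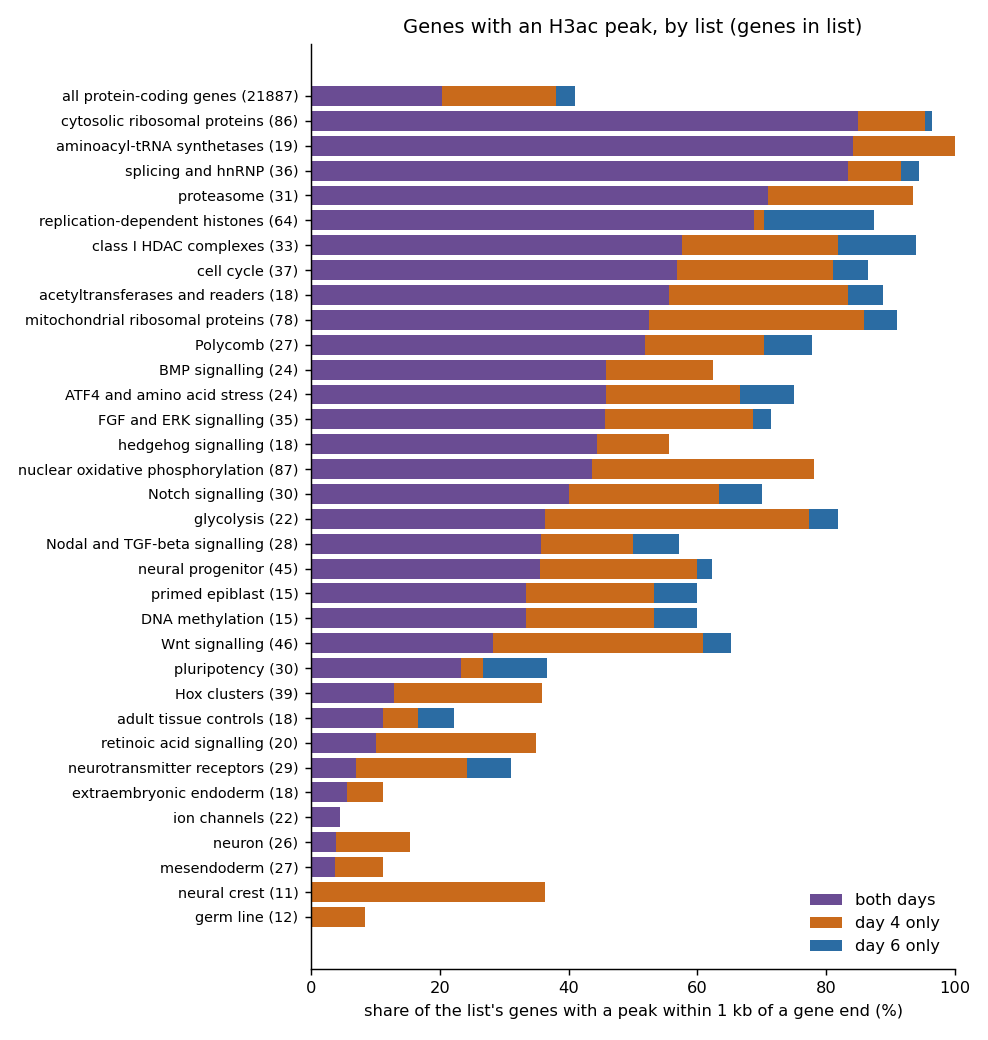
Share (%) of each list's protein-coding genes marked at a gene end (a peak at most 1 kb away) on both days, on day 4 only or on day 6 only, with the number of genes in the list in brackets and all 21887 genes at the top; lists with no marked gene are left out. Cytosolic ribosomal proteins had 73 of 86 genes on both days and glycolysis 8 of 22, replication-dependent histones had the largest day 6 only share (17.2%), and neural crest genes were marked on day 4 only.

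Promoter composition was compared over the 3603, 3135 and 528 genes of the 3 classes that the RefSeq table of promoters holds, which is 80.9%, 81.2% and 82.1% of each class. The median GC content of the 300 bases was 62.7% for genes on both days, 61.0% for day 4 only and 61.5% for day 6 only, and the median ratio of observed to expected CG was 0.854, 0.762 and 0.783. Over all 17492 promoters in the table the medians were 56.3% and 0.577, and for genes marked on neither day 51.0% and 0.285. Motifs were searched on both strands, and none of the 6 motifs contains another, although matches may overlap. The Sp1-like GGGCGG was in 69.8%, 67.7% and 68.0% of the promoters of the 3 classes and in 46.3% of all 17492 promoters in the table, and CCAAT in 38.8%, 41.4% and 40.5%, against 39.2% of all. TATAAA was in 6.44%, 5.46% and 8.90%, against 13.3%, and the E-box CACGTG in 11.3%, 9.89% and 9.85%, against 7.91%. The E-box CAGCTG was in 11.4% (10.4 to 12.4), 15.2% (13.9 to 16.5) and 15.9% (13.0 to 19.3), against 15.1%, and the octamer ATGCAAAT in 1.28%, 1.28% and 1.70%, against 1.72%. The table holds 79.9% of all genes, so the values over all 17492 promoters describe the table only. A match of these letters is a description and not a binding site.

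MicroRNA genes are short, so a hairpin was counted when a peak lay within 1 kb of it. Of 1005 hairpins, 49 were near a peak on both days, 45 on day 4 only, 18 on day 6 only and 893 on neither. The mature sequences of those the comparison turns on are given from RefSeq GRCm38.p6, 5′ to 3′, with the seed (bases 2 to 8, which pair with target mRNAs) in capitals. The first group holds neural and developmental microRNAs, miR-9 and miR-219a of the nervous system and let-7i of the let-7 family, which rises as stem cells differentiate.
mmu-miR-9-5p: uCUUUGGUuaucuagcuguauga
mmu-miR-219a-5p: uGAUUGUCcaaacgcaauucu
mmu-let-7i-5p: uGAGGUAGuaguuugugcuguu

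Mir9-1, Mir9-2 and Mir9-3 encode miR-9. Mir9-2 lay at a day 6 peak of 2752 bp (rank 222) with no day 4 or day 2 peak, and Mir9-1 lay at a weak day 4 peak of 469 bp (rank 11138) with no day 6 peak. Mir9-3 had no peak within 1 kb on either day. Both genes of miR-219a were marked on both days, Mir219a-1 by peaks of 1193 and 4694 bp and Mir219a-2 by peaks of 2730 and 4465 bp. Mirlet7i had peaks of 1560 bp (rank 573) and 1913 bp (rank 81).

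The second group is the stem cell cluster of miR-290 to miR-295 on chromosome 7 and the miR-17 to miR-92 cluster on chromosome 14, shown together because their seeds are close. The seed AAAGUGC is shared by miR-17 and miR-20a, AAGUGCU by miR-294 and miR-295, and miR-290a has AAGUGCC.
mmu-miR-17-5p: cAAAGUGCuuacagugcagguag
mmu-miR-20a-5p: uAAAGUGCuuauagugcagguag
mmu-miR-290a-3p: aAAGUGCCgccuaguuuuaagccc
mmu-miR-294-3p: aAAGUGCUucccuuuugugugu
mmu-miR-295-3p: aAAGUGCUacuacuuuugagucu

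The miR-17 to miR-92 cluster had 2 day 4 peaks, of 584 bp (rank 4806) and 529 bp (rank 12927), and 1 day 6 peak of 1857 bp (rank 609). The miR-290 cluster had no day 4 peak, a weak day 6 peak of 2221 bp (rank 4695) and a day 2 peak of 2319 bp (rank 343). Like Tdgf1, this stem cell locus was thus in the lists of days 2 and 6 and not in that of day 4. Hairpins of a cluster lie under the same peak and are not separate observations.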

How the data were processed

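Chromatin immunoprecipitation sequencing of H3ac gave 1 ChIP and 1 input library on each of days 4 and 6, and the day 2 lists of H3ac and HDAC1 gave the earlier state. Per the submitters' processing notes, Bowtie 0.12.8 and build mm10 were used. The deposited lists give each peak's start and end in bp and a score, and peak names begin with MACS. How peaks were called (version, threshold, whether the input was subtracted) is not given in the sources used here. The scale of the deposited score is not stated, so it only ranked peaks within a list. The lists hold no counts, so depth is unknown and no test between days could be made.

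Peaks were compared by overlap of 1 bp or more. A protein-coding gene of RefSeq GRCm38.p6 counted as marked on a day if its 5′ or 3′ end was at most 1 kb from a peak. Shares carry 95% Wilson intervals, and medians carry order-statistic intervals. Members, genes and the 35 gene lists were chosen with earlier results of these data known. Genes named are 24 candidates, the 8 strongest of each class, the 8 that widened and the 8 that narrowed most, those at the peaks covering most peaks of the other day, and up to 4 members of each list and class by score; some are not reported here. Alternatives were equal numbers of top-scoring peaks, the higher-scoring 50% of each list, joined peaks, other overlap rules, and gene windows of 0.5 and 2.5 kb or the start site only. The calculations were tested on simulated data and run with Python 3.11.15, numpy 2.4.6, pandas 2.3.3, scipy 1.17.1 and matplotlib 3.10.9.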

Additional observations from a re-analysis of the deposited data

How the results depend on the processing

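No paired analysis was possible because each day had 1 library. When the 2 lists were made equally long by score, 63.79% of day 4 peaks and 56.85% of day 6 peaks overlapped the other day, the width ratio was 1.682, and 1877 genes were day 4 only and 1799 day 6 only. With the higher-scoring 50% of each list the shares were 38.04% and 75.04%, and 2211 genes were marked on both days. Joining peaks closer than 1 kb gave 41.08%, 84.03% and a ratio of 1.531, and counting gaps of up to 1 kb as shared gave 47.39% and 85.38%. Over the spans of all shared regions the ratio was 1.555. Leaving out chromosomes X and Y and mitochondrial and unplaced sequence, an alternative chosen after seeing the data, gave 82.28% of day 6 peaks. The cause of these shifts was not tested. Of the 105 list counts, 40 moved by over 1.5 times with equal numbers, 55 with the higher-scoring 50%, 35 at start sites only, 16 and 12 with windows of 0.5 and 2.5 kb, 4 without those sequences and 0 with joined peaks. The width ratio stayed above 1 in every alternative run. Without counts or replicates, weak peaks near the cut-off of a list cannot be told from absent ones.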

Other observations

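Chromosome X differed from the autosomes in the day 6 list. It held 1.61% of day 2 peaks, 1.499% of day 4 peaks (194) and 3.602% of day 6 peaks (200, interval 3.14 to 4.13). Of the X-linked day 6 peaks 53.5% (46.6 to 60.3) overlapped a day 4 peak, against 82.2% of the others, whereas of the X-linked day 4 peaks 62.4% overlapped a day 6 peak, against 44.2%. Of 966 X-linked genes 70 (7.25%) were day 6 only, against 2.74% of the other genes, and 31 of the 70 were marked on day 2. Cdk16, a cyclin-dependent kinase, was among them.

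Several strong peaks of 1 day lay over non-coding RNA genes. The strongest day 6 only peak outside protein-coding genes (rank 31, 3974 bp) lay over Mir99ahg, the host of microRNAs of the miR-99 and let-7 families, and had no day 2 peak. On day 4 only, a peak of 3238 bp (rank 85) lay over long non-coding RNA genes 14656 bp from Skida1, whose own day 6 peak was the widest of that list. Lncenc1, a non-coding RNA gene known from embryonic stem cells, had a day 6 only peak of 3049 bp (rank 1405). A day 6 peak of 6572 bp on mitochondrial DNA, which carries no histones, had no day 4 counterpart. These loci were chosen after their values were seen.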
